A study of Mus musculus with 2 samples.

Results

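The genes of the hypoxia response and of glycolysis were followed in single cells of tumours that mice carried under the skin and that came from the mammary carcinoma line 4T1. The set was chosen by symbol, and all 34 genes named were found among the 32285 genes listed in the files: 3 genes of oxygen sensing, 13 other hypoxia-induced genes, 15 glycolytic enzymes and 3 transporters of glucose or lactate. The treated library came from tumours of mice given phototherapy mediated by AIE COF, a covalent organic framework preparation. The PBS library came from tumours of mice given PBS. The labels place tumour collection on day 7 after phototherapy. The labels give no genotype, age or number of animals, call the strain C57BL/c, which is not resolved here, and repeat 1 protocol text for both samples. Each group was 1 library, so no difference below has a replicate check, there is no test, and every interval is a 95% interval that covers counting error only. The libraries held 115576457 UMIs in 10002 treated barcodes and 145045294 UMIs in 8962 PBS barcodes. After filtering there were 8619 treated and 7864 PBS cells, with medians of 3884 UMIs per treated cell and 6341 UMIs per PBS cell, and 39 barcode sequences occurred in both libraries.

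Cells sense oxygen through prolyl hydroxylases, encoded by genes such as Egln1 and Egln3, which mark the alpha subunit of hypoxia-inducible factor for destruction while oxygen is present. When oxygen is short, the alpha subunit, encoded by Hif1a, accumulates, pairs with its partner Arnt and binds short DNA elements near its target genes. Those targets include Egln3 itself, glucose transporters, most enzymes of glycolysis, and genes of blood vessel growth, mitochondrial turnover, collagen modification and acid handling. Solid tumours commonly contain poorly perfused regions where these targets are high.

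Promoter windows were available in the RefSeq table of build GRCm38.p6 for 32 of the 34 genes, Ero1l under the symbol Ero1a, and not for Ndrg1 and Slc2a3. Each window is 300 bases around an annotated start, and some genes have several starts. The core letters ACGTG or GCGTG of the hypoxia response element were searched on both strands, with overlapping matches counted separately. At least 1 match stood in 35 of the 46 windows of these genes, or 76.1%, beside 43.8% of all 32851 windows in the table. By role, 3 of 3 oxygen-sensing genes, 12 of 12 other hypoxia-induced genes, 12 of 15 glycolytic enzymes and 2 of 2 transporters had a match in at least 1 window. Of all 27025 genes with a window, 46.7% had a match in at least 1. A match describes the letters in the window and not a bound site. Car9 had 1 match in its window, and Aldoa had 0, 1 and 1 in its windows. Both belong to the 7 genes set apart in cluster 1 below and are not shown. The windows of 4 hypoxia-induced genes among the 7 genes set apart in cluster 1 below, and that of Gapdh, are shown as examples, chosen after the values were seen, 5′ to 3′ on the gene's strand with the core in capitals: Ankrd37 (chr8:45999801-46000100, minus strand, 4 matches), Bnip3 (chr7:138909457-138909756, minus strand, 5 matches), Ero1l (chr14:45318523-45318822, minus strand, 3 matches), P4ha2 (chr11:54100674-54100973, plus strand, 4 matches) and Gapdh (chr6:125165724-125166023, minus strand, 3 matches).
Ankrd37: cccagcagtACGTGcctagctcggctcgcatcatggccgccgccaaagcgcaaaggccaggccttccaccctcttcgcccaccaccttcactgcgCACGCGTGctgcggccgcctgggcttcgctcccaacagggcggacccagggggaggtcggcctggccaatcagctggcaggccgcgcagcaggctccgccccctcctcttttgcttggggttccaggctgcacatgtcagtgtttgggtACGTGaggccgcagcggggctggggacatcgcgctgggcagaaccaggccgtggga
Bnip3: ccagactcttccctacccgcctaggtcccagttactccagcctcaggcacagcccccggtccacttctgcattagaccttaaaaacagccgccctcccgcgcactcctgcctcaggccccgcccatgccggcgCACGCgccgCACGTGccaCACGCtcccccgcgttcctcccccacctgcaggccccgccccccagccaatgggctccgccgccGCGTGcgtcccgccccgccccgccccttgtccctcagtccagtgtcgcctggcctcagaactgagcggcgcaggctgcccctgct
Ero1l: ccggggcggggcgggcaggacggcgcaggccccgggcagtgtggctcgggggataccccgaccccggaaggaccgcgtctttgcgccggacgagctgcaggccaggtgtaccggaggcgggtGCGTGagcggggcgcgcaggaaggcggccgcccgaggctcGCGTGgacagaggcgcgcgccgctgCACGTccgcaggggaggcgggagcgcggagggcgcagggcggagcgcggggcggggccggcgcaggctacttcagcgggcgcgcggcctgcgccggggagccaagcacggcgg
P4ha2: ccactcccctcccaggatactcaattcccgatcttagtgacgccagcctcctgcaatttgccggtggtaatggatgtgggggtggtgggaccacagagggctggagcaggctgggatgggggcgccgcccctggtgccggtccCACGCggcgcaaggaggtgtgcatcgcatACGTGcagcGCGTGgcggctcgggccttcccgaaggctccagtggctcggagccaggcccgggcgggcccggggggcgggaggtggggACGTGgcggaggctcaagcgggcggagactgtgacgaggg
Gapdh: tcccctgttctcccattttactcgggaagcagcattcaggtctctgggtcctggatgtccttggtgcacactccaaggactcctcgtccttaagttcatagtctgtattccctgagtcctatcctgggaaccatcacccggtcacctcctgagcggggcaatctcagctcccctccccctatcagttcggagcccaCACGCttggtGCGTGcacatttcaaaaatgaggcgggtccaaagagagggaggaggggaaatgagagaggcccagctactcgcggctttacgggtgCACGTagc

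A level was called measured where both libraries together held at least 50 UMIs of the gene, and 32 of the 34 genes were measured over the whole tumour. Hif1a had 0 UMIs in both libraries, which allows up to 0.0292 CPM, or UMIs of a gene scaled to a fixed total, in treated and 0.0237 CPM in PBS cells at a limit of 3 counts. In GENCODE M21 on GRCm38 the whole Hif1a gene (chr12:73901375-73947530, 46156 bases) lies inside another annotated gene, Gm15283, which had 139 UMIs. The level of Hif1a mRNA is therefore not known from these counts. Eno2, the neuronal enolase, had 10 treated and 7 PBS UMIs. Ankrd37 shares 6405 bases with Lrp2bp and 57 bases with Ufsp2, and Pfkp shares 748 bases with Pitrm1. The strands of these pairs were not compared, so it is not known whether reads in those stretches can be assigned with certainty. Aldoa appears in 2 rows of the gene list, and the second row had 0 UMIs.

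The cells that carry most of the signal were RNA-rich cells with little Ptprc, which encodes CD45 on leukocytes. They were taken as the unnamed clusters with Ptprc under 100 CPM and a median of at least 10000 UMIs, and numbered 2552 treated and 2976 PBS cells, or 29.6% of treated and 37.8% of PBS cells. They held 76.6% of treated and 81.1% of PBS UMIs. Among tumour markers, the chromatin factor gene Hmga2 stood at 381 CPM in treated and 349.9 CPM in PBS cells of this class, the homeobox gene Rhox5 at 768 CPM in treated and 729.5 CPM in PBS cells, and H19 at 39.6 CPM in treated and 64.4 CPM in PBS cells. The epithelial markers Krt8, Krt18, Krt7, Epcam, Cdh1 and Cd24a were all below 1 CPM in both libraries, and Krt14 was at 1.29 CPM in treated and 1.55 CPM in PBS cells, which goes against the epithelial origin of the line, so the class is called by its RNA content and Ptprc level. Ptprc itself had 14.6 CPM in treated and 6.13 CPM in PBS cells of the class, and its part in the results was not tested. The 5 clusters, numbered 1, 2, 4, 5 and 7, were formed without the hypoxia and glycolysis genes among the clustering genes. Cluster 1 held 26.6% of the class's UMIs in the treated and 19.4% in the PBS library, and cluster 4 held 10.7% in the treated and 19.8% in the PBS library.

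Most hypoxia-induced genes had their highest level in cluster 2 in both libraries. Cluster 2 was highest for 9 treated and 10 PBS genes of the 13 in that group, and for 12 treated and 10 PBS glycolytic enzymes, where 11.9% of 12521 treated and 9.63% of 13114 PBS genes had their highest level there. Ankrd37, an ankyrin repeat gene, had 76.8 CPM in cluster 2 and 18.6 CPM in cluster 4 of the treated library, and 60.8 CPM in cluster 2 and 23.8 CPM in cluster 4 of the PBS library. Ndrg1, a stress-induced gene linked to differentiation, had 69.1 CPM in cluster 2 and 19.3 CPM in cluster 4 of the treated library, and 52.8 CPM in cluster 2 and 26.1 CPM in cluster 4 of the PBS library. Both genes thus had their highest level in cluster 2 and their lowest in cluster 4 in each library. The ratio of the highest to the lowest cluster for Ero1l, an oxidase of disulfide bond formation, was 2.84 in the treated and 2.45 in the PBS library. It was 2.81 in the treated and 2.28 in the PBS library for P4ha2, a subunit of collagen prolyl hydroxylase, and 2.62 in the treated and 1.98 in the PBS library for Egln3. The mitophagy receptor gene Bnip3 had a ratio of 2.03 in the treated and 2.21 in the PBS library. Gapdh, whose enzyme oxidises glyceraldehyde phosphate, varied least among these examples, with a ratio of 1.23 in the treated and 1.28 in the PBS library. Slc2a3, a glucose transporter gene, had another order, with 5.37 CPM in cluster 4 and 0.881 CPM in cluster 5 of the treated library, and 6.28 CPM in cluster 4 and 0.928 CPM in cluster 2 of the PBS library. Car9, a carbonic anhydrase of the cell surface, had ratios of 8.36 in the treated and 2.796 in the PBS library, from levels no higher than 3.99 CPM in any cluster.

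**Figure D1:**
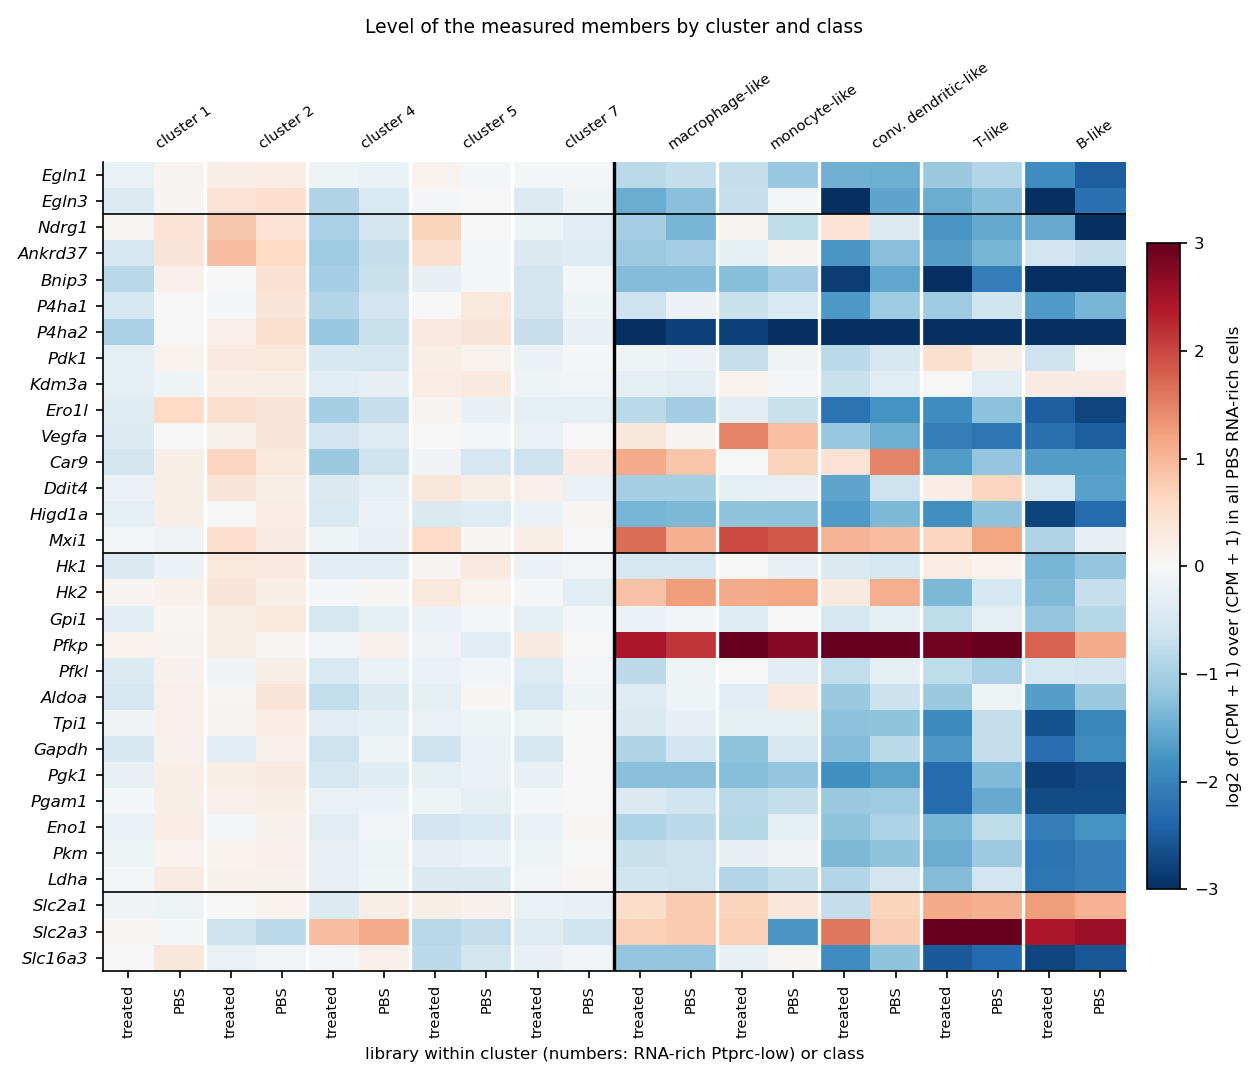
Level of the measured genes in the 5 RNA-rich clusters and in immune classes, as log2 of CPM plus 1 over the level in all PBS RNA-rich cells, treated left of PBS in each pair, with the colour scale ending at 3 log2 units on either side. Cluster 2 is darkest red for Ankrd37, at 76.8 CPM in the treated and 60.8 CPM in the PBS library, and Pfkp is high in the dendritic-like and T-like columns.

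Within the class, single cells covered a wide range. Each RNA-rich cell with at least 10000 UMIs was thinned to 10000, which left 2332 treated and 2664 PBS cells and dropped 220 treated and 312 PBS cells. The summed UMIs of the 16 oxygen-sensing and other hypoxia-induced genes had a median of 10 in treated and 11 in PBS cells, a 90th percentile of 28 in treated and 32 in PBS cells, and a maximum of 140 in treated and 155 in PBS cells. At least 30 such UMIs were found in 8.83% of treated cells (7.71 to 10.1, 206 of 2332) and 12.1% of PBS cells (10.9 to 13.4, 323 of 2664). This is a range and not a cell type, since 136 treated and 212 PBS cells lay within 5 UMIs of that value. By cluster the share was 7.67% of treated cells (5.73 to 10.01, 49 of 639) and 14.4% of PBS cells (11.4 to 17.8, 71 of 494) in cluster 1. In cluster 7 it was 6.202% of treated cells (4.47 to 8.35, 40 of 645) and 13.3% of PBS cells (10.7 to 16.3, 81 of 607). Cluster 4 had the smallest shares, 3.25% of treated cells (1.41 to 6.31, 8 of 246) and 6.42% of PBS cells (4.402 to 8.99, 31 of 483). The share was 16.8% of treated cells (13.5 to 20.5, 79 of 470) and 17.05% of PBS cells (13.9 to 20.6, 89 of 522) in cluster 2. In cluster 5 it was 9.04% of treated cells (6.18 to 12.6, 30 of 332) and 9.14% of PBS cells (6.88 to 11.8, 51 of 558). The shares in clusters 2 and 5 had largely overlapping intervals in the 2 libraries, whereas the treated intervals of clusters 1 and 7 lay below the PBS intervals. In cluster 1 this also held at 20 UMIs, with 16.4% of treated cells (13.6 to 19.5) and 28.5% of PBS cells (24.6 to 32.7), and at 40, with 3.599% of treated cells (2.295 to 5.35) and 10.5% of PBS cells (7.96 to 13.6). In cluster 7 the intervals overlapped at 20 UMIs, with 17.7% of treated cells (14.8 to 20.8) and 23.1% of PBS cells (19.8 to 26.6), and at 40, with 3.57% of treated cells (2.27 to 5.303) and 6.43% of PBS cells (4.61 to 8.68). Cluster 4 had overlapping intervals at 20 and 30 UMIs. At 40 its intervals lay apart, with 0% of treated cells (0 to 1.49) and 2.90% of PBS cells (1.59 to 4.82). In clusters 2 and 5 the intervals overlapped at 20 and 40 as well.

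**Figure D2:**
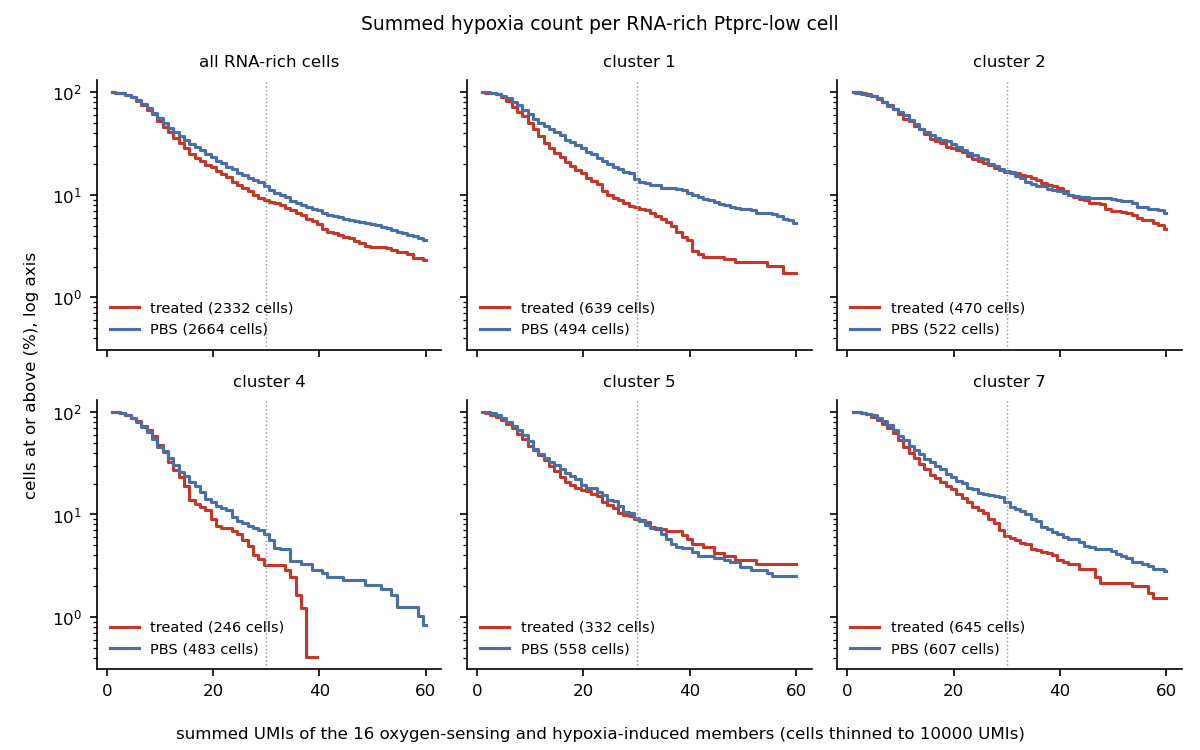
Percent of RNA-rich cells (log axis) at or above each summed hypoxia UMI count, per 10000 UMIs, for all cells and for each cluster, treated in red and PBS in blue; the dotted line marks 30 UMIs. The treated curve lies below the PBS curve at the line in every panel, though in clusters 2 and 5 the curves nearly meet there. In cluster 1, 7.67% of treated and 14.4% of PBS cells reach the line. The shares are 6.202% of treated and 13.3% of PBS cells in cluster 7, and 3.25% of treated and 6.42% of PBS cells in cluster 4.

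The genes of the set varied together from cell to cell in both libraries. For each gene, cells were ranked by the summed UMIs of the other hypoxia genes, and the top and bottom quartiles, of 583 treated or 666 PBS cells each, were compared. Ankrd37 averaged 1.197 UMIs per cell in the top quartile and 0.0772 in the bottom quartile of the treated library, a ratio of 15.5 (11.5 to 21.5), and 1.29 UMIs per cell in the top quartile and 0.0901 in the bottom quartile of the PBS library, a ratio of 14.3 (11.03 to 18.9). Ero1l had ratios of 11.5 (9.86 to 13.4) in treated and 11.8 (10.4 to 13.5) in PBS cells. Ndrg1 had ratios of 7.88 (6.39 to 9.803) in treated and 9.25 (7.42 to 11.7) in PBS cells, and P4ha2 of 7.88 (5.88 to 10.8) in treated and 8.58 (6.68 to 11.2) in PBS cells. These ratios had intervals that overlapped between the 2 libraries. Bnip3 did not follow that pattern, with a ratio of 7.68 (6.19 to 9.63) in treated and 13.3 (10.8 to 16.7) in PBS cells. The variance of its counts per cell over their mean was 2.21 in treated and 2.69 in PBS cells. The intervals leave out that spread between cells, and the difference between the Bnip3 ratios was not tested. Pdk1, whose kinase restrains pyruvate entry into the citrate cycle, had ratios of 4.54 in treated and 6.15 in PBS cells. Ddit4, an inhibitor of mTOR signalling, had ratios of 4.31 in treated and 4.21 in PBS cells. Car9 had enough UMIs in PBS cells alone, with a ratio of 28.5 (7.54 to 241), the highest point value and the widest interval of the set.

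The measured glycolytic enzymes of the set followed the hypoxia sum, with ratios below those of the leading hypoxia genes. Pgk1, the first enzyme of the pathway to yield ATP, had a ratio of 2.93 in treated and 3.16 in PBS cells, and Ldha, which makes lactate, 2.55 in treated and 2.83 in PBS cells. Gapdh had the lowest ratios among the measured glycolytic enzymes, 1.61 in treated and 1.74 in PBS cells. Slc16a3, the lactate exporter gene, had 2.98 in treated and 3.495 in PBS cells, while the interval of the glucose transporter gene Slc2a1 included 1 in treated cells, at 1.23 (0.7898 to 1.93), and not in PBS cells, at 1.84 (1.22 to 2.81). Over all genes outside the set the median ratio was 0.966 in treated and 0.955 in PBS cells, and 3.95% of treated and 3.45% of PBS genes reached 1.5. A list of further hypoxia-induced genes had 17 of 30 measured genes at 1.5 or more in treated and 17 of 31 in PBS cells, among them Fam162a, at 4.31 in treated and 5.67 in PBS cells. A list of further glycolysis and lactate genes did not follow the enzymes of the set. Its median ratio was 0.94 in treated and 0.88 in PBS cells. Only Bsg reached 1.5, as 1 of 10 measured genes in treated and 1 of 13 in PBS cells. None of 21 citrate cycle genes and none of 20 cell cycle genes reached 1.5 in either library. Outside all lists, and chosen after their values were seen, the cell cycle inhibitor gene Cdkn1a had 5.24 in treated and 7.00 in PBS cells, and the metallothionein gene Mt1 had 3.26 in treated and 3.67 in PBS cells. Across cells the hypoxia sum and the sum of glycolytic enzymes had a Pearson correlation of 0.75 over 2332 treated and 0.77 over 2664 PBS cells; cells of 1 library share its preparation and, after thinning, their depth.

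**Figure D3:**
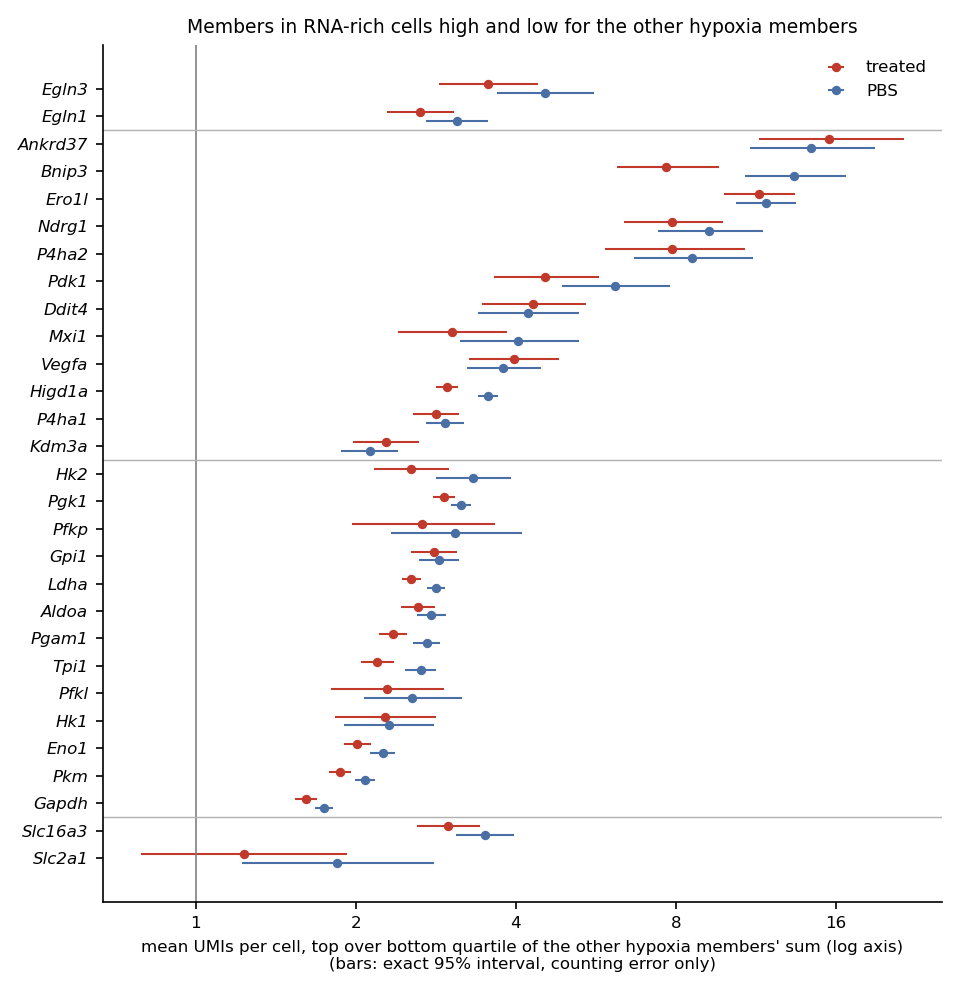
Mean UMIs per RNA-rich cell in the top over the bottom quartile of the other hypoxia genes' sum (log axis), treated in red and PBS in blue, for the genes measured in both libraries (Car9, at 28.5 in PBS cells alone, is not drawn), with exact 95% intervals for counting error only. Of those drawn, Ankrd37 lies farthest right, at 15.5 in treated and 14.3 in PBS cells, and Gapdh is the leftmost glycolytic enzyme.

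Over the whole tumour, none of the 32 measured genes was at least 1.5-fold higher in the treated library and none at least 1.5-fold lower, where 8.5% of 15628 measured genes were that much higher and 4.89% that much lower. The median log2 ratio of treated over PBS was -0.15 over the 32 genes and 0.0099 over all measured genes. In such a sum, fewer cells with a high level and less RNA of the gene per cell cannot be told apart. With each cell given equal weight, 1 gene was at least 1.5-fold higher, Slc2a3, and 5 were lower, Bnip3, P4ha2, Gapdh, Slc16a3 and Car9, where 9.69% of all measured genes were higher and 13.8% lower, and the median was -0.32. The count of lower genes is near the share over all genes.

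In RNA-rich cells, too, 0 of 31 measured genes passed 1.5-fold in either direction, beside 4.32% of 14186 measured genes higher and 5.03% lower. Most genes of the set were slightly lower in treated cells: 26 of the 31 had a log2 ratio below 0, 22 with an interval wholly below 0 and 5 with an interval above it. Over all measured genes, 50.4% had a log2 ratio below 0, 25.6% an interval wholly below 0 and 28.1% an interval above it. The median log2 ratio was -0.14, against -0.0020 over all measured genes. Summed levels were 1368 CPM in treated and 1570.0 CPM in PBS cells for the oxygen-sensing and hypoxia-induced genes, and 4166 CPM in treated and 4757 CPM in PBS cells for the glycolytic enzymes.

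Among oxygen-sensing genes, Egln3 had 31.4 CPM in treated cells and 36.6 CPM in PBS cells, a log2 ratio of -0.22 (-0.29 to -0.15). Egln1 had 70.5 CPM in treated cells and 71.7 CPM in PBS cells, a log2 ratio of -0.02 (-0.07 to 0.03), an interval that includes 0. Among the other hypoxia-induced genes, Bnip3 was lowest relative to PBS, with 43.7 CPM in treated cells and 62.7 CPM in PBS cells, a log2 ratio of -0.52 (-0.58 to -0.46). P4ha2 and P4ha1, the catalytic subunit genes of collagen prolyl hydroxylase, were both lower in treated cells. P4ha2 had 23.2 CPM in treated cells and 32.04 CPM in PBS cells, a log2 ratio of -0.47 (-0.55 to -0.38), and P4ha1 had 138 CPM in treated cells and 182 CPM in PBS cells, a log2 ratio of -0.41 (-0.44 to -0.37). Car9 had 1.68 CPM in treated cells and 2.22 CPM in PBS cells, a log2 ratio of -0.40 (-0.72 to -0.08). Higd1a, Vegfa, Ero1l, Pdk1 and Kdm3a had log2 ratios between -0.22 and -0.08. The group was not uniform: Ankrd37 was level at 39.6 CPM in treated cells and 39.9 CPM in PBS cells, and Ddit4, Ndrg1 and Mxi1 were higher in treated cells. Mxi1, an antagonist of MYC, had 26.7 CPM in treated cells and 22.7 CPM in PBS cells, a log2 ratio of 0.24 (0.15 to 0.32). Ndrg1 had 44.01 CPM in treated cells and 38.7 CPM in PBS cells, a log2 ratio of 0.18 (0.12 to 0.25).

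Of the 13 measured glycolytic enzymes, 11 were lower and 2 higher in treated RNA-rich cells. Gapdh had 552 CPM in treated cells and 776 CPM in PBS cells, a log2 ratio of -0.49 (-0.51 to -0.48). Aldoa, the main aldolase gene of most tissues, had 247 CPM in treated cells and 325 CPM in PBS cells, a log2 ratio of -0.39 (-0.42 to -0.37). Pfkl, a phosphofructokinase gene, had 22.7 CPM in treated cells and 28.6 CPM in PBS cells, a log2 ratio of -0.34 (-0.42 to -0.25). These were the enzymes farthest from PBS, and the remaining lower ones, Eno1, Gpi1, Pgk1, Hk1, Tpi1, Pkm, Ldha and Pgam1, had log2 ratios between -0.22 and -0.03. The hexokinase gene Hk2 and the phosphofructokinase gene Pfkp were higher in treated cells, with log2 ratios of 0.12 (0.06 to 0.18) and 0.14 (0.04 to 0.24). Among transporters, Slc16a3 had 85.5 CPM in treated cells and 97.99 CPM in PBS cells, a log2 ratio of -0.20 (-0.24 to -0.15), while the intervals of Slc2a1, at -0.13 (-0.31 to 0.05), and Slc2a3, at -0.17 (-0.46 to 0.13), included 0. Weighting the treated clusters by their PBS shares changed little, with Bnip3 at -0.53 and Gapdh at -0.51. Of the 31 genes, 14 were lower in treated cells in 5 of 5 clusters, and 1, Mxi1, was higher in 5 of 5, where 12.3% of all measured genes were lower and 20% higher in every cluster.

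Cluster 1 differed more between the libraries than the class as a whole. In it, 7 of 31 measured genes were at least 1.5-fold lower in treated cells and 0 higher, where 3.16% of 11175 measured genes were that much lower and 3.67% higher. The 7 were Car9, Bnip3, P4ha2, Ero1l, Ankrd37, Aldoa and Gapdh, and 26 of the 31 genes had an interval below 0, beside 14% of all measured genes. Bnip3 had 34.7 CPM in treated cells and 70.2 CPM in PBS cells, a log2 ratio of -1.02 (-1.15 to -0.89). P4ha2 had 15.9 CPM in treated cells and 31.95 CPM in PBS cells, a log2 ratio of -1.01 (-1.20 to -0.81). Both were close to a log2 ratio of -1. Ero1l had 104 CPM in treated cells and 203 CPM in PBS cells, a log2 ratio of -0.96 (-1.04 to -0.89), and Ankrd37 had 27.96 CPM in treated cells and 52.3 CPM in PBS cells, a log2 ratio of -0.90 (-1.05 to -0.75). Ndrg1 was lower too, with a log2 ratio of -0.38 (-0.51 to -0.24), although it was higher in treated cells of the class. Median depth also differed in this cluster, at 29585 UMIs per treated cell and 36521 per PBS cell. Thinned to 1000 UMIs per cell, 7 of 20 measured genes were at least 1.5-fold lower, where 3.63% of 3722 measured genes were lower and 5.08% higher, and 4 of them, Ankrd37, Bnip3, Ero1l and Gapdh, were among the 7 above; Aldoa was then at -0.25, and P4ha2 and Car9 held too few UMIs. In the class without cluster 1, an alternative chosen after seeing the data, 21 of 31 genes were lower in treated cells, beside 50% of all genes. Without it Ero1l stood at a log2 ratio of 0.13 and Ankrd37 at 0.24, so both turned positive, as did Egln1, Pdk1 and Pgam1, while Bnip3 stood at -0.37, P4ha2 at -0.31, Aldoa at -0.32 and Gapdh at -0.46. Other lists moved with the cluster 1 result: 13 immediate early genes had a median log2 ratio of 0.34 there, with 3 higher and 0 lower by 1.5-fold, and 17 interferon-induced genes had a median of -0.22, with 0 higher and 4 lower, and their part in the result was not tested.

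The other 4 clusters gave smaller counts. Cluster 2 had 0 of 30 measured genes past 1.5-fold, where 3.58% of 10800 genes were higher and 2.94% lower. Cluster 4 had 1 of 30, Slc2a1, lower at a log2 ratio of -0.73 (-1.29 to -0.20), where 4.13% of 11125 genes were higher and 4.05% lower. Cluster 7 had 1 of 31, Car9, lower at -1.37 (-2.05 to -0.73), where 3.81% of 11627 genes were higher and 3.08% lower. Each of these lone genes stood at under 10 CPM. Cluster 5 had 1 of 29, Ndrg1, higher, where 3.35% of 10697 genes were higher and 3.8% lower. A single gene of about 30 is near the share found over all genes. Ndrg1 in cluster 5 had 62.3 CPM in treated cells and 38.97 CPM in PBS cells, a log2 ratio of 0.68 (0.51 to 0.84). In the same cluster Ankrd37 had 56.2 CPM in treated cells and 39.03 CPM in PBS cells, a log2 ratio of 0.52 (0.35 to 0.69), so its direction was opposite to that in cluster 1. Bnip3, P4ha1, P4ha2, Gapdh and Aldoa were lower in treated cells of all 5 clusters. Bnip3 had log2 ratios between -1.02 in cluster 1 and -0.21 in cluster 5, and Gapdh between -0.62 in cluster 1 and -0.42 in cluster 5.

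**Figure D4:**
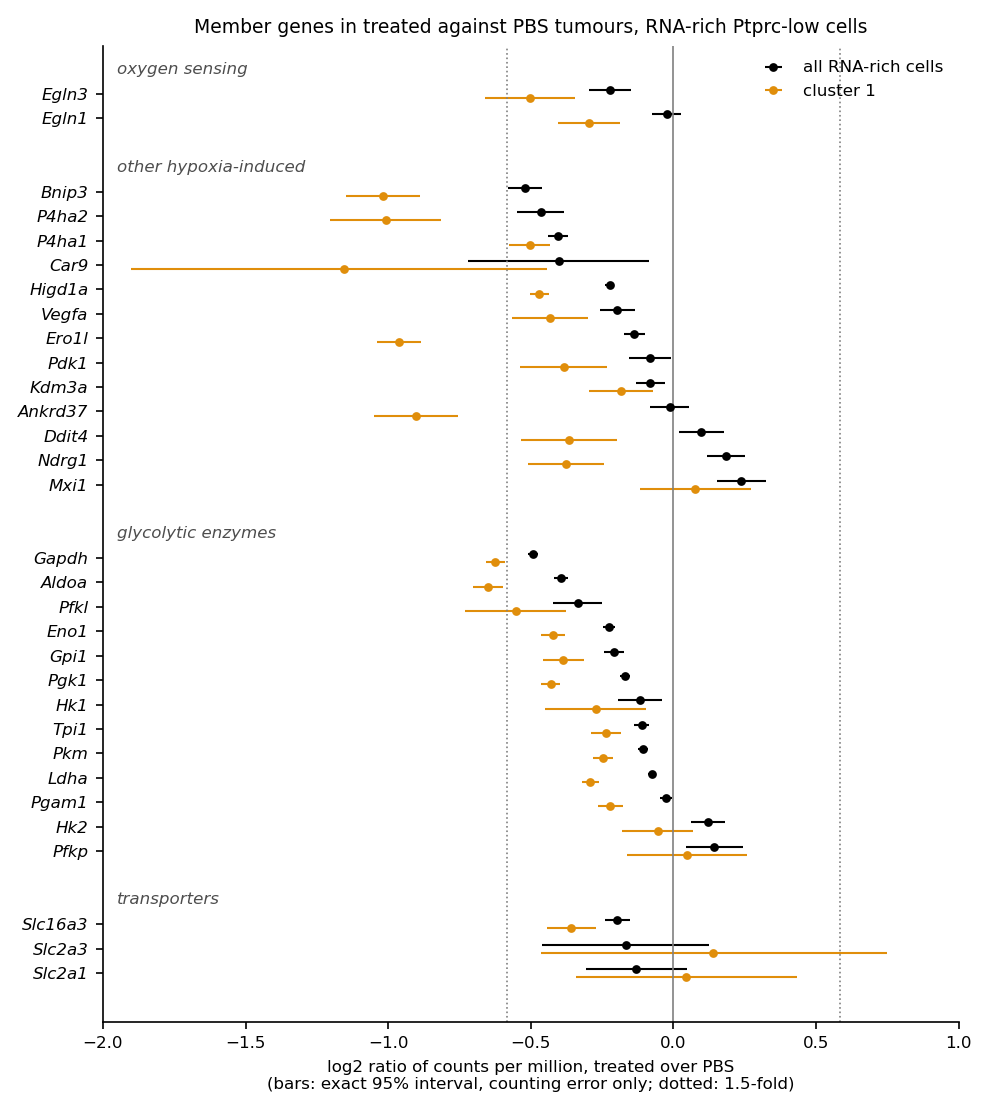
Log2 ratio of CPM, treated over PBS, for the 31 genes measured in RNA-rich cells, in all RNA-rich cells (black) and in cluster 1 (orange), with exact 95% intervals for counting error only; dotted lines mark 1.5-fold. No black point passes a dotted line, and 7 orange points lie left of the lower one.

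Gapdh, Aldoa and Pgk1 were lower in treated cells in 5 of 5 bins of the hypoxia sum, Pgk1 by less than the other two, and Ldha was higher in 3 of the 5. In cells with 0 to 5 summed hypoxia UMIs, Gapdh averaged 4.66 UMIs per treated and 5.903 per PBS cell. In cells with 11 to 20 it averaged 5.39 per treated and 7.69 per PBS cell. In cells with 41 or more it averaged 10.6 per treated and 13.8 per PBS cell. The gap in Gapdh was thus present from the lowest to the highest bin. Ldha averaged 5.14 UMIs per treated and 4.65 per PBS cell in the lowest bin, and 18.1 per treated and 18.2 per PBS cell in the highest. Pgk1 averaged 3.72 UMIs per treated and 3.91 per PBS cell in the lowest bin, and 17.6 per treated and 18.4 per PBS cell in the highest. Aldoa averaged 1.62 per treated and 2.06 per PBS cell in the lowest bin, and 6.66 per treated and 8.52 per PBS cell in the highest. The highest bin held 108 treated and 178 PBS cells.

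**Figure D5:**
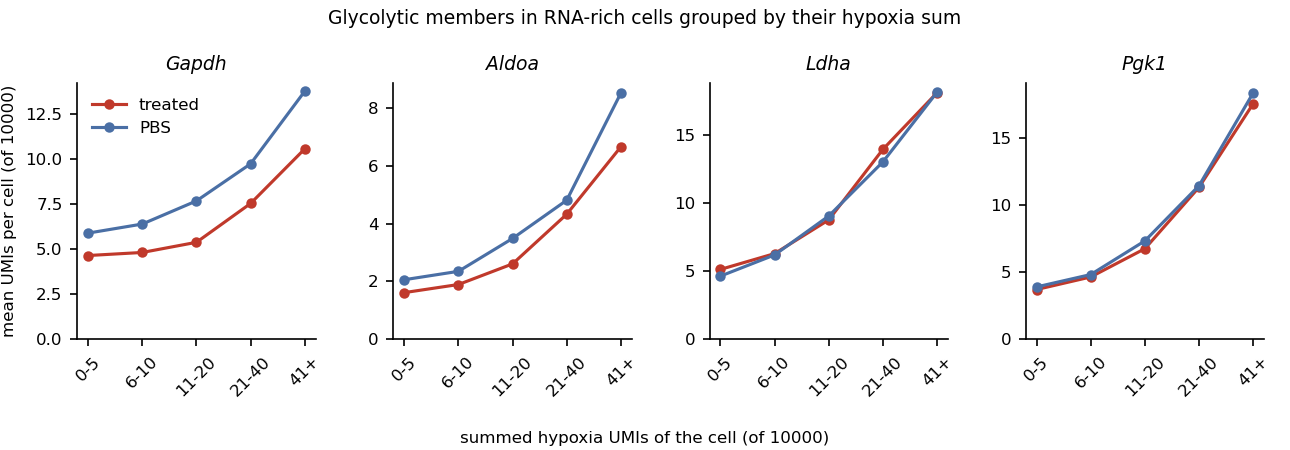
Mean UMIs per RNA-rich cell, of 10000, of 4 glycolytic enzymes in cells grouped by their summed hypoxia UMIs, treated in red and PBS in blue. The treated line lies below the PBS line in all 5 bins for Gapdh, Aldoa and, by a small distance, Pgk1, and the Ldha lines cross.

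Immune classes had a different profile of the same genes. The level that free RNA can reach in them was read from tumour markers. Hmga2 and Rhox5 stood in the 5 immune classes at 3.76% to 8.91% of their RNA-rich level, and H19, a noncoding RNA with only 3 to 76 UMIs in any of these classes, at 7.48% to 24.2%. P4ha2 stood at 5.64% of its RNA-rich level in treated and 1.38% in PBS T-like cells, and at 13.2% in treated and 11.7% in PBS macrophage-like cells, all below the H19 value of the same class and library, so no expression is read from them. Pfkp was far above its RNA-rich level, with 453 CPM in treated cells and 332 CPM in PBS cells of the conventional dendritic-like class. Slc2a3 had 27.8 CPM in treated cells and 26.9 CPM in PBS cells of the T-like class, against 2.09 CPM in treated cells and 2.34 CPM in PBS cells of the RNA-rich class. Vegfa, the vessel growth factor gene, had 149.7 CPM in treated cells and 98.5 CPM in PBS cells of the monocyte-like class. Mxi1 had 74.3 CPM in treated cells and 48.7 CPM in PBS cells of the macrophage-like class. Thinned to 1000 UMIs, 31.8% of treated and 20.8% of PBS dendritic-like cells had a Pfkp UMI, and 1.77% of treated and 1.59% of PBS RNA-rich cells; without thinning the shares were 58.9% of treated and 46.7% of PBS dendritic-like cells, and 34.1% of treated and 32.2% of PBS RNA-rich cells.

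T-like cells numbered 1557 treated, with a median of 1625 UMIs, and 695 PBS, with a median of 2500 UMIs, and had the most genes apart. In them 10 of 28 measured genes were at least 1.5-fold lower in the treated library and 0 higher, where 11.9% of 7520 measured genes were lower and 7.9% higher, and 8 of the 10 were glycolytic enzymes. Tpi1, the triose phosphate isomerase gene, had 76.5 CPM in treated cells and 177 CPM in PBS cells, a log2 ratio of -1.21 (-1.45 to -0.97). Gapdh had 233 CPM in treated cells and 476 CPM in PBS cells, a log2 ratio of -1.03 (-1.17 to -0.89), and Pgk1 had 144 CPM in treated cells and 282 CPM in PBS cells, a log2 ratio of -0.97 (-1.15 to -0.80). The makeup of the class differed between the libraries: cluster 6 held 1245 treated and 324 PBS cells, and cluster 16, whose leading genes include Nkg7 and Gzmb, held 114 treated and 248 PBS cells. Gapdh had 166 CPM in treated cells and 255 CPM in PBS cells of cluster 6, and 486 CPM in treated cells and 611 CPM in PBS cells of cluster 16, so it was higher in cluster 16 in both libraries. With the treated clusters weighted by their PBS shares, 2 of the 28 genes were at least 1.5-fold lower, P4ha1 and Hk2, where 6.21% of all measured genes were lower and 4.87% higher, and the median log2 ratio was -0.21 in place of -0.44. The cell cycle list moved with the T-like result, with 11 of 20 genes at least 1.5-fold lower in treated cells, and its part in the result was not tested.

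The other classes had few genes past 1.5-fold. Macrophage-like cells had 1 of 32 higher, Mxi1 at a log2 ratio of 0.61 (0.43 to 0.80), and 1 lower, Pfkl at -0.69 (-0.99 to -0.39), where 4.43% of 10297 genes were higher and 5.62% lower. Monocyte-like cells had 2 of 27 higher and 4 lower, where 5.86% of 5322 genes were higher and 7.63% lower; Ndrg1 was at 0.85 (0.11 to 1.64) and Gapdh at -0.72 (-0.91 to -0.54). Conventional dendritic-like cells had 1 of 18 higher and 3 lower, where 6.94% of 4726 genes were higher and 8.15% lower. B-like cells had 1 of 15 higher and 2 lower, where 7.49% of 5103 genes were higher and 4.33% lower. RNA-poor Ptprc-low cells had 0 of 29 higher and 0 lower, where 3.88% of 10186 genes were higher and 3.66% lower. Inside the RNA-poor class the clusters were also counted apart, each count resting on 4 genes or fewer. Cluster 0 had 1 of 25 genes higher, Ndrg1 at 0.60 (-0.03 to 1.22), and 4 lower, where 5.95% of 5293 genes were higher and 6.35% lower. The 4 were Higd1a, at -1.02 (-1.38 to -0.68), Egln3, Gapdh and Slc16a3. Cluster 3 had 2 of 29 higher, Ddit4 and Slc2a1, and 0 lower, where 3.11% of 9264 genes were higher and 4.86% lower. Median depth in cluster 3 was 6417 UMIs per treated and 2465 per PBS cell, and its part in the count was not tested. Cluster 19 had 0 of 19 higher and 2 lower, Slc16a3 and Gapdh, where 9.32% of 5073 genes were higher and 8.91% lower, so its lower count was near that share. Cluster 12, unnamed and with macrophage markers but a median of only 912 UMIs, had 3 of 24 higher, Vegfa, Mxi1 and Pfkp, and 1 lower, Pdk1, where 8.08% of 4565 genes were higher and 8.83% lower. Gapdh and Aldoa were lower in the treated library, with an interval below 0, in 7 of the 7 classes of at least 100 cells in each library. Gapdh had log2 ratios between -1.03 in T-like cells and -0.33 in macrophage-like cells. Of the 13 genes measured in all 7 classes, 6 were lower in all 7, beside 5.71% of 3728 genes, and 2, Gapdh and Aldoa, had an interval below 0 in all 7, beside 0.617%. The 7 classes come from the same libraries, so they are not separate checks. Free RNA from RNA-rich cells, where both genes were lower too, can reach the other classes, and its part was not tested.

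Other genes of the pathway, taken from fixed lists, differed little from PBS in RNA-rich cells. Of 9 measured subunits and regulators of the factor, 0 passed 1.5-fold and the median log2 ratio was 0.09; Elob, part of the ubiquitin ligase that recognises the hydroxylated factor, was at -0.30 (-0.32 to -0.28), and Cited2, a competitor for its coactivators, at 0.24 (0.22 to 0.27). Of 36 further hypoxia-induced genes, 1 was higher, the chemokine receptor gene Cxcr4 with 58 treated and 28 PBS UMIs, and 1 was lower, the carbonic anhydrase gene Car12 with 43 treated and 91 PBS UMIs, and the median was -0.02. The leukocyte gene Ptprc was higher in the same direction as Cxcr4, at 14.6 CPM in treated and 6.13 CPM in PBS cells. The part of leukocyte RNA in the Cxcr4 counts was not tested. Fam162a, a mitochondrial hypoxia target, had 288 CPM in treated cells and 383 CPM in PBS cells, a log2 ratio of -0.41 (-0.43 to -0.39). Of 20 further glycolysis and lactate genes, 0 passed 1.5-fold and the median was 0.04. Of 22 pyruvate dehydrogenase and citrate cycle genes, 0 passed 1.5-fold, 4 were below 0 and the median was 0.15; the citrate synthase gene Cs was at 0.25 (0.21 to 0.29). The glycolytic enzymes of the set, at a median of -0.12, and the citrate cycle genes thus stood on opposite sides of 0, a difference that was not tested. Lists that can move with tissue handling were set beside these. The 13 immediate early genes had a median of -0.01 with 2 higher and 1 lower. The 10 heat shock genes had a median of -0.08 with 1 higher and 2 lower. The higher one was Hspb1, at a log2 ratio of 4.30. Among the lower ones, Hspa1b had 4.66 CPM in treated cells and 18.96 CPM in PBS cells. Of 17 interferon-induced genes 3 were lower and 0 higher, with a median of -0.32, and 20 cell cycle genes had a median of 0.10 with 0 past 1.5-fold. The part of these lists in the result was not tested.

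The genes outside all lists whose level most resembled the mean of the hypoxia genes over Ptprc-low cells were found by Pearson correlation of log2 of CPM plus 1 over 16 sums of cluster and library, among 5144 genes. They were Zc2hc1a at a correlation of 0.83, Scfd1 at 0.83, Col4a2 at 0.80, Vwa5a, Srp72, Nedd4, Secisbp2l and Ccdc50, the last at 0.77. Col4a2, a chain of basement membrane collagen, had 56.9 CPM in treated and 70.2 CPM in PBS RNA-rich cells. The 16 points share 2 libraries and differ in depth, so the correlations are descriptions.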

How the data were processed

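UMIs of 2 single-cell libraries, 1 treated and 1 PBS, were analysed. Per the labels' protocols, dissociated tumours went through a MobiCube 3' kit, with NovaSeq sequencing. STAR and mm10 are named in the submitters' processing notes, without version or annotation. The authors deposited raw UMI counts for each gene in each barcode, with no normalization and with no barcode under 500 UMIs.

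Cells with at least 200 genes and at most 20% mitochondrial UMIs were kept, and 694 treated and 569 PBS barcodes were removed as doublets by Scrublet score (0.8% per 1000 barcodes). Clustering used scanpy 1.11.5 under Python 3.11.15, with 2000 variable genes, 30 components, 15 neighbours and resolution 1. Left out were the genes of the set and 3 lists: factor subunits and regulators, further hypoxia-induced genes, and further glycolysis and lactate genes. The other lists, such as cell cycle, interferon-induced, immediate early, heat shock and citrate cycle genes, were not left out and could help form the clusters. Named clusters rest on marker genes and carry the suffix -like; rebuilt names can differ from the study's. UMIs were summed per library over each class that had 100 or more cells in both libraries, and given as CPM. Ratios carry exact conditional binomial intervals and shares Clopper-Pearson intervals, both at 95% and for counting error only. Poisson counts were simulated for 14186 genes at the depth of the RNA-rich class, with a small part of the genes set apart. Of those set 1.5-fold apart, 98% had the simulated ratio inside their interval. The simulation held no variation between cells, so this coverage follows from its design and does not reach the spread between cells. A gene counted as called at 1.5-fold. Positions are those of GENCODE M21 (GRCm38), which held 32158 of the 32285 gene identifiers.

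Genes described in full are the 3 per role with the largest absolute ratio in RNA-rich cells, the 8 with the largest spread over its clusters, up to 4 per list, and the 8 most alike; some of the list genes are left out of the text. The genes, lists and class rules were chosen with earlier results of these data known. Alternatives were other scalings (edgeR 4.0.16 factors only, with no test), equal cell weight, thinning, filters, clusterings and UMI minimums.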

Additional observations from a re-analysis of the deposited data

Results flagged for a closer look

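In 3 hypoxia-induced genes the treated and PBS libraries differed in opposite directions between RNA-rich clusters, with intervals on either side of 0 and at least 1 of the values past 1.5-fold. Ndrg1 had a log2 ratio of treated over PBS of 0.68 (0.51 to 0.84) in cluster 5 and -0.43 (-0.70 to -0.18) in cluster 4. Ankrd37 had 0.52 (0.35 to 0.69) in cluster 5 and -0.90 (-1.05 to -0.75) in cluster 1. Ero1l had 0.31 (0.21 to 0.41) in cluster 5 and -0.96 (-1.04 to -0.89) in cluster 1. With 1 library per group the difference between clusters was not tested, and the intervals cover counting error only. Bnip3 and P4ha2 did not show such a reversal and were lower in treated cells of all 5 clusters.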

How the results depend on the processing

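None of the 7 genes called in cluster 1 changed direction under the alternatives run there. Some of these could not change it: the UMI minimums leave a gene's ratio as it was, and TMM scaling moved all ratios there by -0.04. Leaving out the shared barcodes touched only 39 sequences. With thinning, Car9 held 1 treated and 1 PBS UMI and P4ha2 held 11 treated and 17 PBS UMIs, too few for a check. The median log2 ratio, -0.31 in dendritic-like and -0.13 in RNA-poor cells, turned positive under 1 alternative in each. Counts of genes past 1.5-fold that moved by over 1.5 times, or medians that moved beyond counting error, are as follows; the causes were not tested. With TMM scaling, higher genes numbered 1 in cluster 3, lower genes numbered 1 in RNA-poor cells and 1 in monocyte-like. With equal cell weight, higher genes numbered 1 in the whole tumour, 1 in RNA-poor cells, 2 in dendritic-like, 1 in cluster 1, 2 in cluster 5, 0 in cluster 0, 4 in cluster 3 and 2 in cluster 19, lower genes numbered 5 in the whole tumour, 2 in RNA-poor cells, 2 in macrophage-like, 2 in monocyte-like, 5 in dendritic-like, 2 in cluster 4, 3 in cluster 7, 7 in cluster 0, 1 in cluster 3 and 4 in cluster 12, the median log2 ratio was -0.32 in the whole tumour. With thinning to 1000 UMIs, higher genes numbered 1 in the whole tumour, 1 in RNA-poor cells, 0 in macrophage-like, 1 in monocyte-like, 0 in B-like, 1 in cluster 4, 2 in cluster 5, 0 in cluster 0 and 0 in cluster 3, lower genes numbered 3 in the whole tumour, 2 in RNA-poor cells, 2 in macrophage-like, 2 in monocyte-like, 1 in dendritic-like, 1 in cluster 2, 0 in cluster 4, 1 in cluster 5, 2 in cluster 7 and 1 in cluster 3, the median log2 ratio was -0.27 in the whole tumour, -0.0956 in RNA-rich cells, -0.27 in RNA-poor cells and 0.16 in dendritic-like. With a stricter cell filter, higher genes numbered 2 in macrophage-like and 0 in B-like, lower genes numbered 3 in macrophage-like and 1 in B-like, the median log2 ratio was -0.00563 in RNA-poor cells. With doublets left in, higher genes numbered 2 in RNA-poor cells, 1 in monocyte-like and 0 in B-like, lower genes numbered 2 in macrophage-like, 2 in monocyte-like and 0 in B-like. With clustering on these genes too, higher genes numbered 1 in monocyte-like, lower genes numbered 1 in dendritic-like. With the libraries clustered apart, higher genes numbered 5 in RNA-poor cells and 0 in macrophage-like, lower genes numbered 2 in macrophage-like, the median log2 ratio was 0.0602 in RNA-poor cells. With a minimum of 10 UMIs, higher genes numbered 1 in the whole tumour, 2 in dendritic-like, 4 in B-like, 2 in cluster 5, 1 in cluster 19 and 6 in cluster 12, lower genes numbered 1 in RNA-poor cells, 8 in dendritic-like, 4 in B-like, 2 in cluster 4, 2 in cluster 7, 1 in cluster 3, 5 in cluster 19 and 2 in cluster 12. With no UMI minimum, higher genes numbered 1 in the whole tumour, 1 in RNA-rich cells, 2 in dendritic-like, 2 in T-like, 4 in B-like, 1 in cluster 1, 1 in cluster 2, 3 in cluster 5, 2 in cluster 0, 2 in cluster 19 and 6 in cluster 12, lower genes numbered 2 in RNA-poor cells, 10 in dendritic-like, 9 in B-like, 2 in cluster 4, 2 in cluster 7, 8 in cluster 0, 2 in cluster 3, 7 in cluster 19 and 3 in cluster 12. With the shared barcodes left out, higher genes numbered 1 in cluster 3. With cluster 1 left out, the median log2 ratio was -0.0966 in RNA-rich cells. With PBS cluster shares, lower genes numbered 2 in T-like. The median log2 ratio of the highest to the lowest RNA-rich cluster over hypoxia genes, 0.85 in the treated and 0.97 in the PBS library, was in the treated library 1.22 with clustering on these genes too, 0.67 with doublets left in, 1.07 with a stricter cell filter, 0.69 with the libraries clustered apart and 1.23 with thinning to 1000 UMIs, and in the PBS library 1.11 with clustering on these genes too, 0.85 with doublets left in, 0.87 with a stricter cell filter, 1.16 with the libraries clustered apart and 0.87 with thinning to 1000 UMIs. In RNA-rich cells Bnip3 kept to -0.56 to -0.37 and Gapdh to -0.51 to -0.43 over 12 alternatives, among them the UMI minimums, which leave the ratio as it was. Chosen after seeing the data were leaving out the shared barcodes, leaving out cluster 1, the PBS shares in T-like and macrophage-like cells, and, for the spread over clusters, the stricter filter and the separate clustering. Clusters were not rebuilt under other clusterings, since their numbers do not carry over. No paired analysis was possible because each group is 1 library. With 1 library per group, precision is lowest for the rarer genes Car9, Slc2a3 and Slc2a1.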
